A study of Homo sapiens with 4 samples.

Results

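Neurofilament and neuroendocrine marker genes were examined in H1299 cells, an established line of human lung carcinoma of the non-small cell type, with and without CRISPR/Cas9 knockout of TTC28. The set holds 10 genes of the 58735 in the deposited table, chosen by name with earlier results of these data known. They are the neurofilament genes NEFH, NEFL and NEFM, the related filament gene INA, and SNAP25, CHGA, CHGB, SYP, UCHL1 and ENO2. The RNA came from 2 untreated wild-type libraries and 2 untreated TTC28 knockout libraries of the same line, grown in RPMI1640 with fetal bovine serum. The labels give the tissue as lung and do not say whether the knockout cells are 1 clone or a pool, or whether replicates are separate cultures, so that p-values measure only the spread between these libraries.

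Neurofilaments are intermediate filaments of nerve cells, built from a light, a medium and a heavy chain, and alpha-internexin, the product of INA, assembles with them. Neuroendocrine cells store peptides in dense-core granules, which hold the chromogranins encoded by CHGA and CHGB, and also carry small vesicles marked by synaptophysin, the product of SYP. SNAP25 is a plasma membrane SNARE protein that drives fusion of such vesicles. The deubiquitinase UCHL1 and the neuronal enolase isozyme ENO2 are abundant in neurons and, with CHGA and SYP, serve as pathology markers of neuroendocrine lung tumours. Many of these neuronal genes are known targets of the repressor REST in cells outside the nervous system.

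The libraries held between 25120500 and 28885443 counts each, and mitochondrially encoded genes took 5.87% to 6.07% of them in wild type and 8.61% to 10.16% in the knockout; the part of this difference in the results below was not tested. TTC28 itself was at 4.88 and 5.44 FPKM (a level scaled for gene length and library depth, so that genes can be compared) in wild type and 2.96 and 2.99 FPKM in the knockout, so that its transcript was reduced but present, with a log2 fold change of -0.79 ± 0.0764 (SE; edgeR, Benjamini-Hochberg adjusted p = 2.78e-06). Of 9 neuroendocrine markers, 2 reached 1 FPKM in any library, DLL3 and SYP, and GRP and CALCA had no count in any library. CHGA and SYP of the set are among these 9. The summed level of the 9 was 6.41 and 6.71 FPKM in wild type and 4.61 and 3.62 FPKM in the knockout. NEUROD1 went the other way, from a mean of 0.0452 to 0.145 FPKM. Of 5 neuron markers 0 reached 1 FPKM, with sums of 0.650 and 0.652 FPKM in wild type and 0.175 and 0.228 FPKM in the knockout. All 5 mesenchymal markers reached 1 FPKM. The markers of fibroblasts, leukocytes and endothelium summed to at most 0.615, 0.117 and 0.124 FPKM in any library. Of 5 epithelial markers, KRT8 and KRT18 were expressed while EPCAM, CDH1 and KRT19 stayed under 1 FPKM, and of 5 alveolar type II markers only LAMP3 reached 1 FPKM.

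Most of the 10 genes were lower in the knockout, by amounts that ranged from a small shift to near loss of the transcript. In 8 of them both knockout libraries lay below both wild-type libraries, in NEFM both lay above, and in UCHL1 the groups overlapped. Over all 13079 tested genes, 37.9% had knockout values wholly below wild type and 75.5% did not overlap in either direction. These shares cover tested genes only, whereas NEFL, NEFM, CHGA and SYP, counted above, were not tested. Of the tested genes of the set, NEFH, INA, SNAP25, CHGB and ENO2 lay wholly below wild type and UCHL1 overlapped. Testing required 1 FPKM or more in 2 or more libraries, which 6 of the 10 genes reached: 4 were above 1 FPKM in all 4 libraries (INA, CHGB, UCHL1, ENO2), and NEFH and SNAP25 passed only through wild type, with both knockout values under 1 FPKM. In edgeR (quasi-likelihood F test, p-values adjusted by Benjamini-Hochberg over all tested genes), NEFH, SNAP25, CHGB, INA and ENO2 fell and UCHL1 did not pass, with 3 falls of at least 2-fold. Over all tested genes 25.2% were called lower, 50.3% were called in either direction and 2.26% were called at least 2-fold lower. With no filter on level 7 of the 10 genes passed, all of them lower, in a fit that calls 25.7% of 30992 genes, 13.4% as lower and 2.87% as at least 2-fold lower. Because the set was chosen with earlier results of these data known, its counts beside these shares are a description and no test. In a bulk sample, fewer cells that express a gene and less RNA per cell cannot be told apart.

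**Figure D1:**
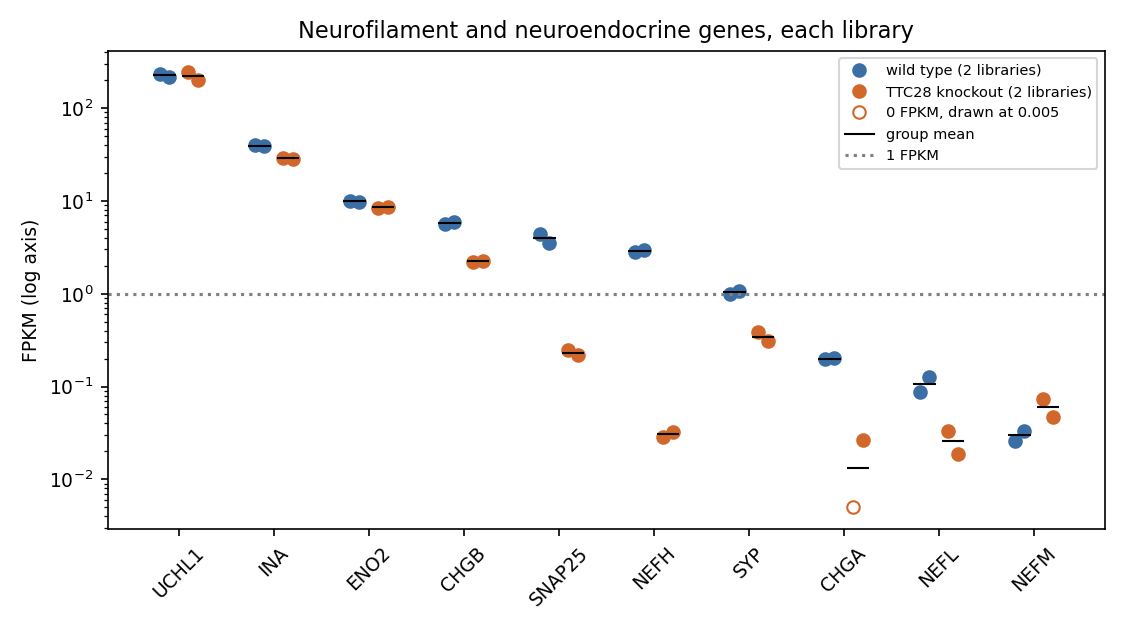
Level of each of the 10 genes in FPKM on a log axis, with 1 point per library, wild type in blue and TTC28 knockout in orange, and the group mean as a bar. NEFH and SNAP25 cross from above to below 1 FPKM, while UCHL1 stays between 202 and 243 FPKM in all 4 libraries.

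The order of levels in wild type was UCHL1, INA, ENO2, CHGB, SNAP25, NEFH, SYP, CHGA, NEFL and NEFM, and no neighbours in this order overlapped. UCHL1 stood above 99.4% of protein-coding genes in wild type and INA above 94.9%, whereas NEFL stood above 34.1% and NEFM above 28.0%. In the knockout SYP stood above SNAP25, and NEFH, NEFL and CHGA came last. There NEFH overlapped NEFL, and NEFL overlapped CHGA.

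Of the neurofilament chains, the heavy chain showed the largest difference. NEFH (ENSG00000100285, hg38 chromosome 22, 29480230 to 29491390, plus strand) had 278 and 304 counts in wild-type replicates 1 and 2 and 3 and 3 counts in the knockout. Its level was 2.80 and 2.95 FPKM in wild type and 0.0285 and 0.0325 FPKM in the knockout, close to the bottom of the expressed range. The transcript thus went from 2.88 ± 0.103 FPKM (SD, n = 2) to 0.0305 ± 0.00284 FPKM (SD, n = 2). NEFH fell by 6.51 on the log2 scale (SE 0.277), the 11th lowest fold change of 13079 genes, lower in 2 of 2 knockout libraries (edgeR, adjusted p = 2.43e-09). From the summed counts, 582 in wild type against 6 in the knockout, wild type was 94.7-fold higher after scaling, with a 95% exact Clopper-Pearson interval of 43.3 to 259. Such intervals cover counting error only. The gene AC000035.1 on the opposite strand shares 8.80% of the exonic bases of NEFH and had 0 counts in all 4 libraries. Whether counting used strand is unknown, so that reads of opposite strands cannot be told apart where exons overlap.

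The light and medium chains were near 0 in every library. NEFL and NEFM, which are neighbours on chromosome 8, had 3 to 15 counts in wild type and 2 to 9 in the knockout. NEFL had 10 and 15 counts in wild type and 4 and 2 in the knockout, without overlap, a wild-type excess of 4.07-fold (95% exact Clopper-Pearson interval 1.63 to 12.1). NEFM went the other way, with 3 and 4 counts in wild type and 9 and 5 in the knockout, and the knockout was 2.05-fold higher with an interval of 0.773 to 5.99 that spans 1. Neither gene passed the filter on level. With no filter, edgeR gave adjusted p = 0.0296 for NEFL and adjusted p = 0.533 for NEFM. The authors' deposited table gave an adjusted p of 0.176 for NEFL. On the opposite strand AF106564.1 shares 38.9% of the exonic bases of NEFM and had 2, 1, 0 and 0 counts, and AC107373.2, which shares 11.3% of those of NEFL, had no count.

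INA, the alpha-internexin gene, supplied nearly all transcripts of this filament class. INA (ENSG00000148798, chromosome 10, 103277163 to 103290351, plus strand) was at 39.9 and 39.2 FPKM in wild type and 29.4 and 28.1 FPKM in the knockout. Both knockout values were lower, and the gene stayed well expressed in all 4 libraries. INA fell to 0.729 of wild type, a log2 fold change of -0.46 ± 0.0612 (SE), lower in 2 of 2 knockout libraries (edgeR, adjusted p = 4.54e-05). INA made up 93.2% and 92.7% of the summed FPKM of NEFH, NEFL, NEFM and INA in wild type and 99.5% and 99.7% in the knockout. NEFH made up 6.55% and 6.97% in wild type and 0.0963% and 0.115% in the knockout. The filament class therefore kept its main transcript at a reduced level and lost nearly all of the heavy chain share.

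The promoter of INA is shown because this gene fell while staying among the well expressed ones, and because its window was the only one of the 5 matched that held either of the first 2 motifs searched. RefSeq promoter windows (build GRCh38.p14) were matched for INA, CHGA, SYP, UCHL1 and ENO2. The 250 bases before the RefSeq start were read 5′ to 3′ on the gene's strand. That start is not always the outer end of the gene coordinates given here. The INA window lies outside those coordinates, the CHGA and SYP windows partly inside, and the UCHL1 and ENO2 windows wholly inside. No window was available for NEFH, SNAP25 and CHGB, and NEFL and NEFM were left out of the search, so that it does not cover the whole set. The motifs, searched on both strands, were GGACAG, a part of the element bound by REST, CAGCTG, an E-box, and TGACGTCA, the cAMP response element; GGACAG and CAGCTG can overlap through a shared CAG, but did not in these windows. Capitals mark the matches in the INA window at chr10:103276888-103277137, plus strand.
INA: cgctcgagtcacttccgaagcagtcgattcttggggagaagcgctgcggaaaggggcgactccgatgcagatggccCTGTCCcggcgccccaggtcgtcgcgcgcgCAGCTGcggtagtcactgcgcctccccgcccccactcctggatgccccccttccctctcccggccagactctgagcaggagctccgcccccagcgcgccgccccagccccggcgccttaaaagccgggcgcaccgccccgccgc
GGACAG lay on the minus strand, printed as its reverse complement CTGTCC, at position -174 from the start, and CAGCTG at -144. Of 35116 promoter windows of this length, 17.2% hold GGACAG, 14% hold CAGCTG and 1.65% hold TGACGTCA, so that matches of the shorter motifs are common. The 5 windows had a GC content of 64.4% to 74.0%, against a median of 58.0% over all windows (quartiles 46.4% and 68.0%).

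**Figure D2:**
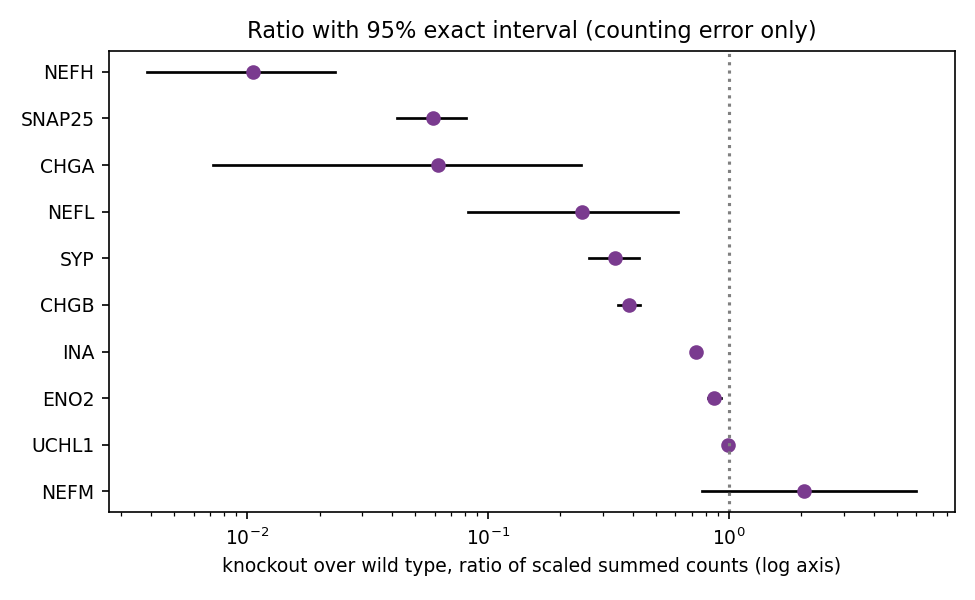
Knockout over wild-type ratio of the summed counts of each gene after scaling (log axis), with 95% exact intervals as lines and 1 as a dotted line. NEFH lies at 0.0106, SNAP25 at 0.0589 and CHGA at 0.0620, with a wide interval for CHGA, while the intervals of UCHL1 and NEFM span 1.

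Chromogranin B, the better expressed of both granins, fell to less than 0.4 of wild type. CHGB (ENSG00000089199, chromosome 20, 5911430 to 5925361, plus strand) was at 5.69 and 5.91 FPKM in wild type and 2.22 and 2.24 FPKM in the knockout. The groups did not overlap and the gap was many times the spread within them. CHGB fell to 0.386 of wild type, a log2 fold change of -1.38 ± 0.0973 (SE), lower in 2 of 2 knockout libraries (edgeR, adjusted p = 2.05e-07). Its counts were 676, 730, 281 and 248 in wild-type replicates 1 and 2 and knockout replicates 1 and 2.

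Chromogranin A was barely expressed. CHGA (ENSG00000100604, chromosome 14, 92923080 to 92935293, plus strand) had 16 and 17 counts in wild type and 0 and 2 in the knockout, where a count of 0 allows up to 3. The wild-type level of 0.197 and 0.201 FPKM was itself under the filter. Wild type was 16.1-fold higher from summed counts, 33 against 2 (95% exact Clopper-Pearson interval 4.12 to 139), and 7.5-fold higher without knockout replicate 1, the library with 0 counts. CHGA was tested only with lower filters, where edgeR gave an adjusted p of 3.78e-05 (no filter), 0.00107 (edgeR's own filterByExpr) and 0.00265 (at least 0.1 FPKM). The authors' deposited table has an adjusted p of 0.0156 for it.

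Synaptophysin was lower and lay at the edge of the filter. SYP (ENSG00000102003, chromosome X, 49187804 to 49200259, minus strand) was at 0.995 and 1.08 FPKM in wild type and 0.385 and 0.306 FPKM in the knockout, so that 1 wild-type library missed 1 FPKM by a small margin. The counts were 136 and 154 against 56 and 39, with no overlap. Wild type was 2.98-fold higher from summed counts (95% exact Clopper-Pearson interval 2.36 to 3.80). With no filter, SYP fell by 1.59 on the log2 scale (SE 0.204; edgeR, adjusted p = 1.83e-13). Its edgeR adjusted p was less extreme with filterByExpr (1.94e-05) and with at least 0.1 FPKM (4.13e-05). The authors' deposited table has an adjusted p of 8.84e-06 for SYP. SYP-AS1, on the opposite strand and sharing 1.3% of its exonic bases, had no count.

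The promoters of CHGA and SYP are shown as those of a granule and a vesicle marker that were both low in wild type and lower in the knockout. The windows lie at chr14:92922900-92923149, plus strand, and chrX:49200194-49200443, minus strand, and capitals mark TGACGTCA.
CHGA: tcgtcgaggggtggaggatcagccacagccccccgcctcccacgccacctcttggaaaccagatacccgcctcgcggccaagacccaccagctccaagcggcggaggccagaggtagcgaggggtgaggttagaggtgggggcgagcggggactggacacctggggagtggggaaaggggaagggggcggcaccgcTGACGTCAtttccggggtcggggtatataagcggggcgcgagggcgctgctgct
SYP: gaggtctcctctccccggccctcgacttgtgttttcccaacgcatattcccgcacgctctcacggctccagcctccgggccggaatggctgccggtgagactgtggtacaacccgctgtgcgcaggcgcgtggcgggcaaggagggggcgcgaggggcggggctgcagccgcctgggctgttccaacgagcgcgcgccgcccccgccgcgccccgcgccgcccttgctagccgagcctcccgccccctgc
CHGA holds TGACGTCA at position -54 from the RefSeq start, which is inside the gene coordinates given above. Neither window holds GGACAG or CAGCTG. The windows of UCHL1 and ENO2 hold none of the 3 motifs. A match is a description of letters and not of binding.

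SNAP25, the SNARE gene, showed the second largest fall among the tested genes of the set. SNAP25 (ENSG00000132639, chromosome 20, 10218830 to 10307418, plus strand) was at 4.40 and 3.57 FPKM in wild type and 0.246 and 0.220 FPKM in the knockout. Its counts were 387 and 326 against 23 and 18, so that a low level remained in both knockout libraries. SNAP25 fell by 4.08 on the log2 scale (SE 0.206), the 16th lowest fold change of 13079 genes, lower in 2 of 2 knockout libraries (edgeR, adjusted p = 9.83e-09). The ratio from summed counts was 17.0 in favour of wild type (95% exact Clopper-Pearson interval 12.4 to 23.9). Its paralogs SNAP23, the form found in most tissues, and SNAP29 did not pass, at log2 fold changes of 0.26 ± 0.138 (SE) and 0.02 ± 0.0803 (SE). Without knockout replicate 2, SNAP23 was called higher, at 0.44 (edgeR, adjusted p = 0.0103). Wild-type SNAP29 was at 9.22 ± 0.317 FPKM and knockout SNAP29 at 9.31 ± 0.781 FPKM (SD, n = 2 in each group).

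The most abundant marker of the set, UCHL1, did not differ beyond its spread. UCHL1 (ENSG00000154277, chromosome 4, 41256413 to 41268455, plus strand) was at 232 and 219 FPKM in wild type and 243 and 202 FPKM in the knockout. The knockout libraries lay on either side of the wild-type ones. Its log2 fold change was -0.02 ± 0.0816 (SE; edgeR, adjusted p = 0.861), and the ratio from summed counts, wild type over knockout, was 1.01 with an exact counting interval of 0.990 to 1.02. Across count-based fits its log2 fold change ran from -0.15 to 0.10, and no setting called it. The related deubiquitinase genes are UCHL3, with 26, 35, 35 and 19 counts and under the filter, and UCHL5, which did not pass at -0.19 ± 0.0820 (SE) but was called lower without knockout replicate 2 (edgeR, adjusted p = 0.0499), under total-count scaling (0.0200) and in limma on a TPM scale (0.0145).

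ENO2, the neuronal enolase, was slightly lower. ENO2 (ENSG00000111674, chromosome 12, 6913745 to 6923698, plus strand) was at 9.94 and 9.85 FPKM in wild type and 8.45 and 8.71 FPKM in the knockout, without overlap. ENO2 fell to 0.869 of wild type, a log2 fold change of -0.20 ± 0.0769 (SE), lower in 2 of 2 knockout libraries (edgeR, adjusted p = 0.0420). This call was lost in 5 of 17 alternatives, among them DESeq2 (adjusted p = 0.101), and adjusted p-values ran from 0.0070 to 0.170. Without wild-type replicate 1 it was 0.170, without wild-type replicate 2 it was 0.1125, and without knockout replicate 1 it was 0.125. The authors' deposited table gave an adjusted p of 0.114. The enolase genes ENO1 and ENO3 fell too: ENO1, the glycolytic form of most tissues, from 545 ± 1.04 to 398 ± 25.5 FPKM (SD, n = 2 in each group), and ENO3, the muscle form, from 3.11 ± 0.0976 to 1.54 ± 0.386 FPKM (SD, n = 2 in each group). Their log2 fold changes were -0.45 ± 0.0749 (SE) and -1.0 ± 0.152 (SE), with edgeR adjusted p-values (Benjamini-Hochberg) of 0.000255 and 0.000123. ENO4, a further enolase gene, had 11, 8, 11 and 8 counts and was not tested.

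**Figure D3:**
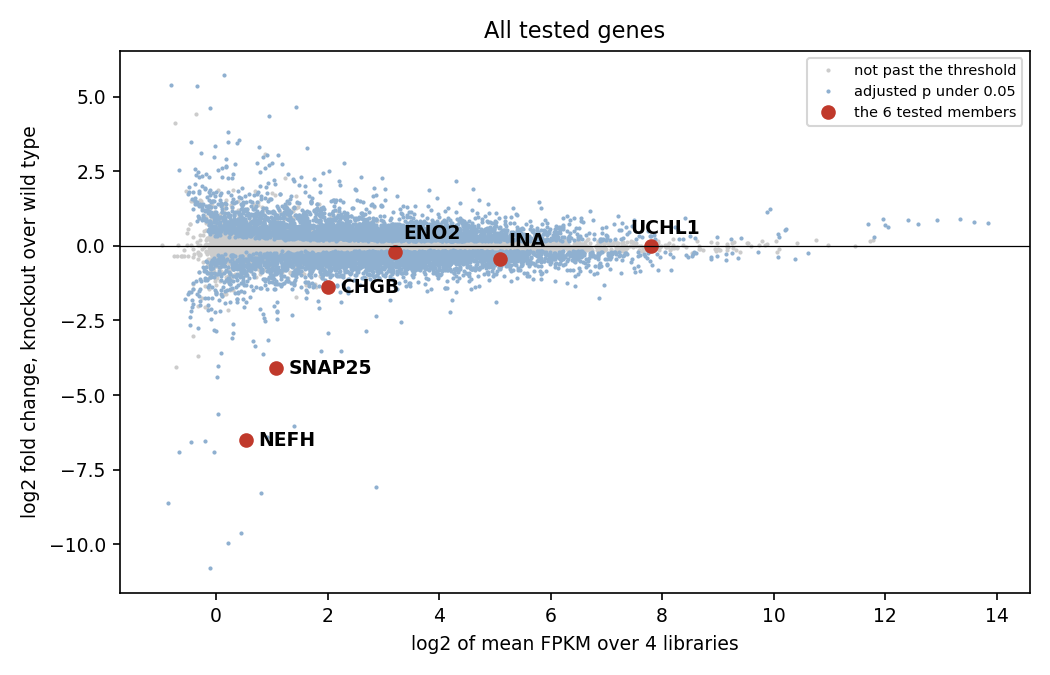
Log2 fold change, knockout over wild type, against the log2 of the mean FPKM for all 13079 tested genes, in blue where the adjusted p was under 0.05, with the 6 tested genes of the set in red. NEFH at -6.51 and SNAP25 at -4.08 lie among the few genes at the bottom of the plot, and UCHL1 lies at -0.02.

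For NEFH, SNAP25 and CHGB, none of the 5 nearest tested genes on each side fell as far as the gene itself. The lowest were NF2 (-0.77) for NEFH, JAG1 (-1.26) for SNAP25 and FERMT1 (-0.97) for CHGB, named after their values were seen. SNAP25, which fell further than CHGB, is itself one of the 25 tested genes on one side of CHGB. NEFH starts 0.8 Mb beyond the end of TTC28, the targeted gene, and the 11 tested genes between them had a median log2 fold change of -0.06, with 3 called lower and 4 called higher. The median over the 25 tested genes on each side was -0.07 for NEFH, -0.05 for SNAP25 and 0.01 for CHGB. CHGB and SNAP25 lie 4.29 Mb apart on chromosome 20, and the 7 tested genes between them ran from -0.97 to 0.60, with 2 called in each direction. For INA the median of the neighbours was 0.18, and with it removed the log2 fold change of INA was -0.64.

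ENO2 lay among neighbours that mostly fell. The median of its 50 neighbours on chromosome 12 was -0.32, below its own -0.20, and 8 of the 10 nearest tested genes fell. With that median removed ENO2 came to 0.12. Single neighbours of other genes of the set moved more than the set's own member, named here after their values were seen: LIMCH1, next to UCHL1, was at 3.35 and NEURL1, near INA, at -2.41.

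**Figure D4:**
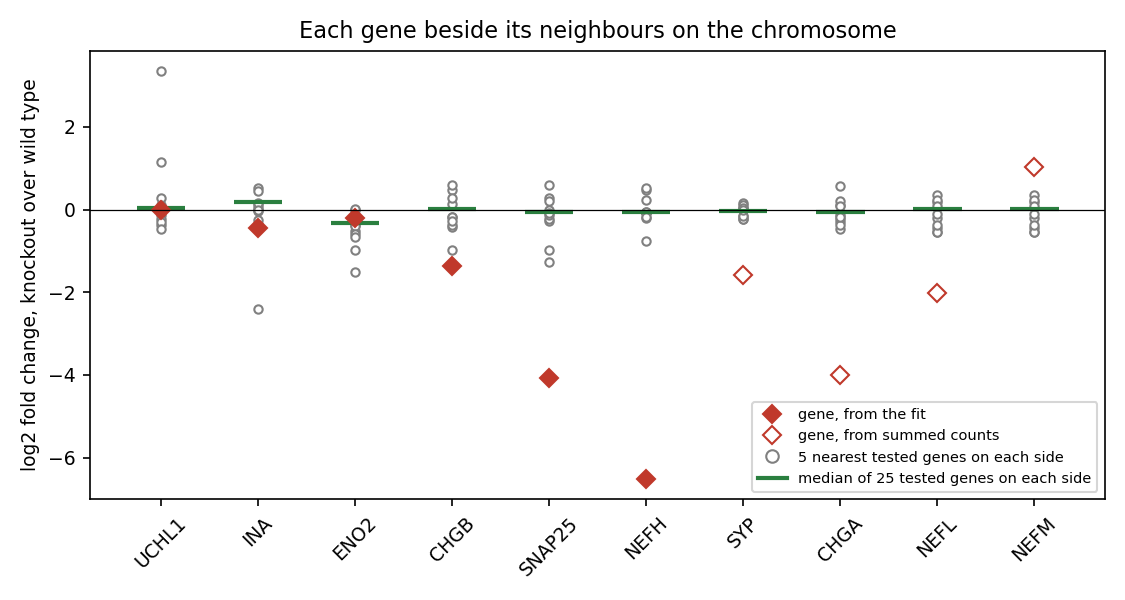
Log2 fold change, knockout over wild type, of each of the 10 genes (diamonds, open where it comes from summed counts), of the 5 nearest tested genes on each side (circles) and the median of 25 tested genes on each side (green bar). The diamonds of NEFH and SNAP25 lie below all of their nearest neighbours, and ENO2 lies above its green bar at -0.32.

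The genes closest to NEFH and SNAP25 in level over the 4 libraries were found by the Euclidean distance of log2 CPM among tested protein-coding genes. For NEFH they were TNC (distance 0.391), RIPK4 (1.11) and PPP1R14A (1.5). TNC, the matrix protein tenascin C, had 314, 327, 3 and 2 counts, nearly those of NEFH. For SNAP25 they were DHRS2 (0.388), SORCS2 (0.602) and S100A16 (0.987). DHRS2, a reductase gene, had 397, 383, 29 and 18 counts.

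Related gene lists showed no common direction. The median log2 fold change over all 13079 tested genes was -7.1e-05, with 25.1% called higher and 25.2% lower. Of the called genes 49.9% were higher, against 25.5% in limma on a TPM scale, where the median of all genes was -0.16. Among intermediate filament genes outside the keratins, 6 of 11 were tested, and 3 rose, 0 fell and 3 did not pass, with a median of 0.17. The filament gene SYNM rose by 0.43 (SE 0.0807) and VIM, the vimentin gene, by 0.23 (SE 0.0710) on the log2 scale. VIM lost its call without wild-type replicate 2 (adjusted p = 0.1615), under total-count scaling (0.0735) and on a TPM scale (0.522), all from edgeR or limma. LMNB1, a nuclear lamin gene at 0.20 ± 0.0638 (SE), lost its call in 6 settings, among them without wild-type replicate 1 (edgeR, adjusted p = 0.1996) and without knockout replicate 2 (0.0603). PRPH, the peripherin gene of peripheral neurons, had 43, 39, 68 and 51 counts and was not tested.

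Genes of the axonal cytoskeleton went both ways. Of 21 genes 12 were tested, and 4 rose, 5 fell and 3 did not pass, with a median of -0.17. The kinesin genes KIF5C and KIF5A, whose products carry axonal cargo, moved in opposite directions. KIF5C went from 2.94 ± 0.333 to 1.24 ± 0.0139 FPKM, and KIF5A from 1.57 ± 0.0202 to 3.10 ± 0.238 FPKM (SD, n = 2 in each group). The log2 fold changes were -1.24 ± 0.105 (SE) and 0.98 ± 0.108 (SE), with edgeR adjusted p-values (Benjamini-Hochberg) of 8.94e-07 and 8.55e-06. The microtubule-linked genes MAP1B and STMN3 fell by 0.66 (SE 0.0667) and 0.63 (SE 0.0690).

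Genes of the dense-core granule went both ways. Of 16 genes 6 were tested, and 3 rose, 1 fell and 2 did not pass, with a median of 0.20. The peptide-processing enzyme genes CPE and PAM rose by 0.65 (SE 0.0835) and 0.32 (SE 0.0617), and the granin gene SCG2 by 0.37 (SE 0.0913). On a TPM scale limma did not call PAM (adjusted p = 0.0992) or SCG2 (0.0714), and edgeR did not call SCG2 without wild-type replicate 2 (0.0551). VGF, a granin-like gene that was the most highly expressed of the list, fell from 279 ± 9.33 to 217 ± 0.137 FPKM (SD, n = 2 in each group), by 0.36 on the log2 scale (SE 0.0640). Under the filter and named after their values were seen, PTPRN2 had 24, 40, 0 and 0 counts and SCG3 had 7, 18, 1 and 0, both lower with no filter (edgeR, adjusted p = 6.08e-15 and 0.000367).

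Synaptic vesicle and SNARE genes likewise went both ways. Of 31 genes 17 were tested, and 5 rose, 2 fell and 10 did not pass, with a median of 0.10. STX1A, the syntaxin that pairs with SNAP25, fell from 19.6 ± 1.38 to 12.4 ± 1.33 FPKM (SD, n = 2 in each group). Its log2 fold change was -0.65 ± 0.0841 (SE), and CPLX1, the complexin gene that clamps the SNARE complex, was at -0.98 ± 0.165 (SE). NAPB and RAB3B rose by 0.72 (SE 0.120) and 0.45 (SE 0.0693). Of the genes under the filter, 3 were lower with no filter (UNC13A, SYN1 and SYT7) and 1 was higher (SYT11), named after their values were seen. In the family of synaptophysin and synaptogyrin, 5 of 7 genes were tested, and 1 rose, 2 fell and 2 did not pass, with a median of -0.17. SYNGR3 fell by 0.84 (SE 0.111) and SYPL1, a synaptophysin-like gene, by 0.24 (SE 0.0639), while SYNGR1 rose by 0.43 (SE 0.102) and SYNGR2 did not pass. SYPL1 lost its call without wild-type replicate 2 (edgeR adjusted p = 0.0742), and SYNGR1 on a TPM scale (limma adjusted p = 0.111).

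Transcription factors of neuroendocrine lung cells were mostly under the filter. NEUROD1 had 4, 4, 13 and 12 counts, and INSM1 had 1, 0, 0 and 0. Of 20 factors of this list only HES1 and YAP1 were tested. HES1, a transcriptional repressor and Notch target, fell from 6.10 ± 0.192 to 2.39 ± 0.0394 FPKM (SD, n = 2 in each group), by 1.35 on the log2 scale (SE 0.130; edgeR adjusted p = 2.87e-06), and YAP1 did not pass. Of 19 genes of peptide hormones and surface markers 2 were tested: DLL3, a Notch ligand, fell by 0.55 (SE 0.136), and NMB, the neuromedin B gene, did not pass at -0.23 ± 0.123 (SE).

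REST and several genes of its cofactors rose. Of 18 genes in a list of REST, its cofactors and regulators 17 were tested, and 9 rose, 2 fell and 6 did not pass, with a median of 0.29. The level of REST itself went from 5.57 ± 0.112 to 6.82 ± 0.568 FPKM (SD, n = 2 in each group). It rose by 0.29 on the log2 scale (SE 0.0794; edgeR adjusted p = 0.00735), a call lost without wild-type replicate 1 (adjusted p = 0.0597), without knockout replicate 2 (0.0614) and on a TPM scale in limma (0.249). PHF21A, a chromatin cofactor gene, rose by 0.74 (SE 0.0706), and HDAC1, a histone deacetylase gene, by 0.41 (SE 0.0602). CTDSP2, a small phosphatase gene, rose by 0.56 (SE 0.0693). The list also holds SRRM3, a neural splicing factor gene that is no part of the repressor complex and is named after its values were seen, which rose by 0.57 (SE 0.167). The 2 that fell, named after their values were seen, were RCOR1 and HDAC2, subunits of the repressor complex, at -0.23 ± 0.0633 (SE) and -0.20 ± 0.0649 (SE). Among the enolases and UCH deubiquitinases, 4 of 6 were tested, and 0 rose, 3 fell (ENO1, ENO3, BAP1) and 1 did not pass, with a median of -0.35.

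**Figure D5:**
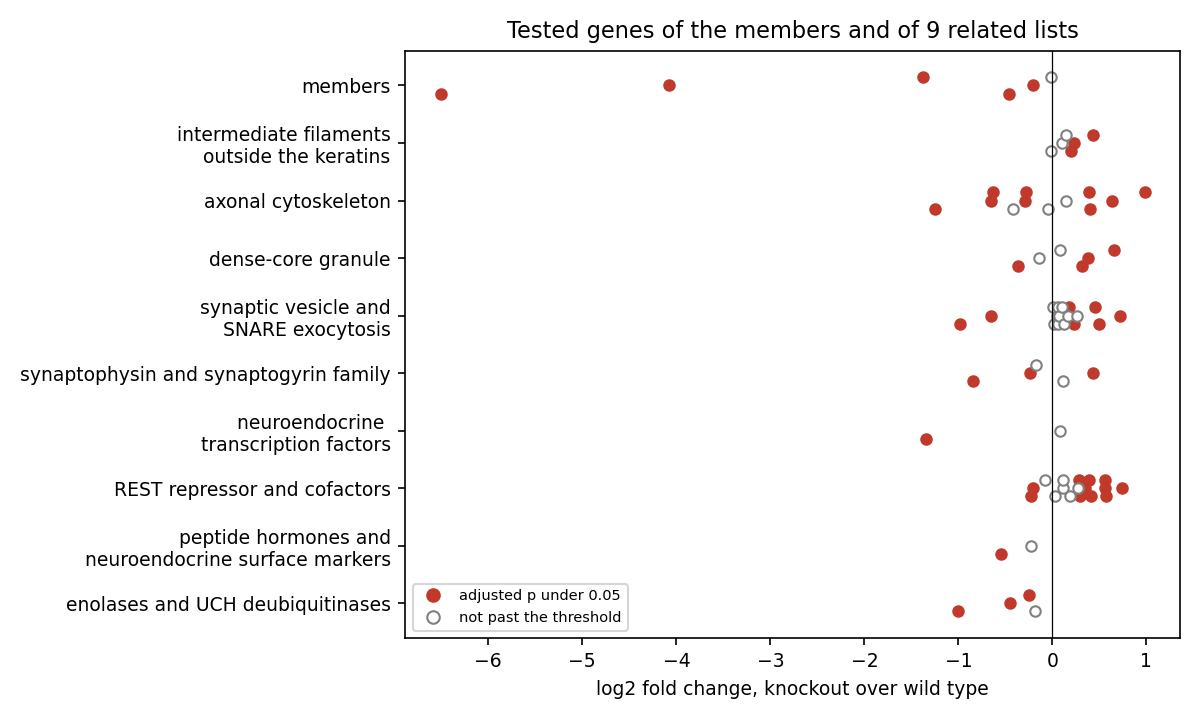
Log2 fold change, knockout over wild type, of every tested gene in the set (top row, members) and in 9 related lists, filled where the adjusted p was under 0.05. The REST list lies mostly above 0, with a median of 0.29, and the points at -6.51 and -4.08 in the top row are NEFH and SNAP25; genes under the filter are not drawn.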

How the data were processed

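Total RNA libraries of H1299 cells (Illumina TruSeq) went through HISAT2 2.0.5 with build hg38, per the submitters' processing notes. The counter, strand setting and annotation were not given in the sources used here. The authors deposited raw counts and FPKM values per gene and library, per the file headers. The authors' deposited log2 fold change and p-value columns, made with a tool that the headers leave unnamed, are quoted only as theirs, and the deposited mean normalized signal per group was not used.

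Groups came from the labels. A minimum of 1 FPKM in 2 libraries left 13079 genes, fitted in edgeR 4.0.16 and R 4.3.3 (quasi-likelihood, TMM factors, no covariates, two-sided), adjusted by Benjamini-Hochberg over all of them at 0.05. Ratios of summed counts were scaled by effective library size, with 95% exact Clopper-Pearson intervals. Exon overlaps came from GENCODE release 29, and promoters from RefSeq. Alternatives were other filters (none, 0.1 and 5 FPKM, filterByExpr), median-of-ratios and total-count scaling, protein-coding genes only, DESeq2 1.42.0, limma 3.58.1 on log2 FPKM (pseudocounts 1 and 0.1) or TPM, robust shrinkage, each library left out, a replicate block and removal of the local median. EdgeR, DESeq2, limma and the interval were tested on simulated data. The genes and the 9 related lists were chosen with earlier results of these data known. Genes named from each list were up to 4 with the smallest p, and paralogs or regulators of the set; some are not reported here. With 2 libraries per group, no permutation test of single genes was made.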

Additional observations from a re-analysis of the deposited data

How the results depend on the processing

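Settings changed how many of the 10 genes could be tested more than which ones fell. Of the 10 genes, 5 were called in the reported fit, 8 with filterByExpr (NEFL, CHGA and SYP added), 7 with no filter and 3 with a filter of 5 FPKM, which leaves out NEFH and SNAP25. The count over all genes was 6581, and 4346 with the 5 FPKM filter, where fewer genes (7490) were tested. NEFH, SNAP25, CHGB and INA kept their direction and their call in every alternative that tested them, with the highest adjusted p at 0.00118, 0.00098, 0.0010 and 0.00338. ENO2 came to 0.12 with the local median removed, against -0.20. Leaving out each library in turn gave 4854 to 6456 called genes and 4 to 5 of the 10, the lone library of a group being assumed to vary like the others, and ENO2 was the call lost. For the other named genes, 685 comparisons with an alternative left the gene as it was, called or not called. In 17 a call was lost and in 8 one was gained. Replicate numbers are shared between the groups. Across the tested genes, the deviation of replicate 1 from its group mean did not correlate between wild type and knockout (correlation -0.0014). A replicate block gave 7108 calls and the same number, 5, of the 10 genes. NEFL, NEFM and CHGA (3 genes) had under 100 counts in all libraries together, so that counting error alone makes their ratios wide.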

Other observations

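Some genes of the related lists lay under the filter of 1 FPKM in at least 2 libraries and still differed in count. Of 78 such genes, 61 had a count in any library and could be fitted. Of these 11 were lower and 4 higher with no filter (edgeR, Benjamini-Hochberg adjusted p). In that fit 13.4% of 30992 genes were called lower and 12.3% higher. Those shares also cover the genes above the filter, so that they are an unlike base. The shares among genes under the filter alone were not counted. Those named here were chosen after their values were seen. UNC13A, a vesicle priming gene, had 180 and 188 counts in wild type and 23 and 13 in the knockout, a wild-type excess of 9.98-fold (95% exact Clopper-Pearson interval 7.08 to 14.5). SYN1, the synapsin I gene, had 49 and 52 counts against 14 and 15, a 3.40-fold excess (2.23 to 5.33). SCG3, a granin gene, had 7 and 18 counts against 1 and 0, a ratio of 24.4 (4.0 to 1003). PTPRN2, a dense-core granule protein gene, had 24 and 40 counts in wild type and none in the knockout. With the knockout set at a floor of 3 counts over the group, it was 20.8-fold lower. Such a value leaves out the counting error of wild type.

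Transcription factors under the filter were also lower in more cases than higher, 5 against 1 of 16 that could be fitted. SOX2 had 28 and 24 counts in wild type and 1 and 0 in the knockout. ISL1 had 10 and 11 against none, 6.84-fold lower with the same floor, wild-type counting error again left out. ONECUT2 had 169 and 159 against 63 and 72, a wild-type excess of 2.37-fold (1.94 to 2.92). NHLH1, a neuronal helix-loop-helix factor gene, was the one that was higher, with 3 and 3 counts in wild type and 20 and 11 in the knockout. DES, the desmin gene of muscle filaments, had 2 and 2 counts in wild type and 29 and 19 in the knockout, a knockout excess of 12.3-fold (4.5 to 46.9).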
